A study of Mus musculus with 64 samples.

Results

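Vancomycin, an antibiotic of the glycopeptide class that stops Gram-positive bacteria from building their cell wall, was compared with its vehicle in whole colon of germ-free (GF) mice at zeitgeber time 11 (ZT11, counted in hours from lights on), near the end of the light period. The comparison took 8 of the 64 RNA sequencing libraries of the series, chosen by their labels alone: 4 libraries labelled GF, vancomycin, ZT11 and 4 labelled GF, PBS, ZT11. All came from wild-type Swiss Webster mice, an outbred stock, aged 8 to 12 weeks and kept under 12 h of light and 12 h of dark. Vancomycin mice had 2.5 mg of the drug in 100 µl of PBS injected into the peritoneum and control mice 100 µl of PBS, with 2 injections daily over 3 days and a final one on day 4. Both groups had been raised in isolators without microbes and were held in ISOcages during treatment, so they lacked a microbiota by their label, and the expression tables hold no measure of bacteria. The labels do not state that each library is a separate animal, and the p-values then reflect only how these libraries vary, which may be technical. Further sets served for reference: the 24 GF libraries of the other times (ZT5, ZT17 and ZT23, 4 of each treatment at each time) and the 8 libraries of specific pathogen free (SPF) colon at ZT11 under the same treatments.

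Colon cells keep daily time through a feedback loop. The proteins CLOCK and BMAL1 (gene Arntl) drive genes through E-box sequences, among them the period genes Per1 to Per3, the nuclear receptors Nr1d1 and Nr1d2 (REV-ERB alpha and beta) and the output factor Dbp. The REV-ERB proteins in turn repress Arntl and Nfil3 through ROR elements, and DBP and NFIL3 compete at D-box sequences with opposite effects. Expression of these genes swings widely over the day.

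The 8 libraries were alike in depth, with totals of 13272790 to 14988747 estimated counts and 19833 to 20316 genes above 0, but not in makeup. Hox genes mark position along the gut, and Hoxb13 and Hoxd13 belong to its distal end. Hoxb13 was at 286, 326, 19.4 and 319 CPM (counts scaled by library size) in PBS replicates 1 to 4 and at 1.75, 374, 371 and 242 CPM in vancomycin replicates 1 to 4. PBS replicate 3 and vancomycin replicate 1 were thus the low ones for this gene, 1 in each group. Hoxd12 and Hoxd13 were also lowest in these libraries. Hoxd10 and Hoxd11, distal genes too, were lowest in PBS replicate 3 (0.61 and 2.05 CPM). In vancomycin replicate 1 they were instead the highest of the 8 libraries (8.8 and 12.95 CPM). The Hox position score, the mean log2 CPM of 5 distal genes minus that of 9 proximal genes, was 3.66, 4.28, 0.27 and 4.03 in PBS and -1.07, 4.62, 4.99 and 3.53 in vancomycin libraries. Its group means were 3.06 ± 1.88 and 3.02 ± 2.79 (SD, n = 4 each), a difference of -0.04 that lay far within the spread and took either sign when single libraries were left out. All 5 distal and all 6 tested proximal genes had positive log2 fold changes, vancomycin minus PBS (medians 0.86 and 0.67), which offset each other in the score. None was called, and 1 distal gene had an unadjusted p under 0.05 in edgeR, where 2.87% of all genes were higher. Vancomycin replicate 1 also stood apart in 4 genes of the Y chromosome (Uty, Kdm5d, Eif2s3y and Ddx3y), at a mean log2 CPM of 0.18 against 5.49 to 5.88 in the other 7. The labels do not state sex. By these genes the sexes were not balanced between the groups. As this library also had the lowest Hox position score, sex and colon position cannot be told apart in it. Markers of colonocytes and ion transport, the main epithelial list, summed to 20490 to 23341 CPM in PBS and 19515 to 23264 CPM in vancomycin libraries, so the labelled tissue was present in all of them. Smooth muscle markers summed to 48374 CPM in PBS replicate 3 and 33319 CPM in vancomycin replicate 1, and to between 12130 and 18253 CPM in the other 6. Values without these 2 libraries are therefore also given for several genes and lists.

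**Figure D1:**
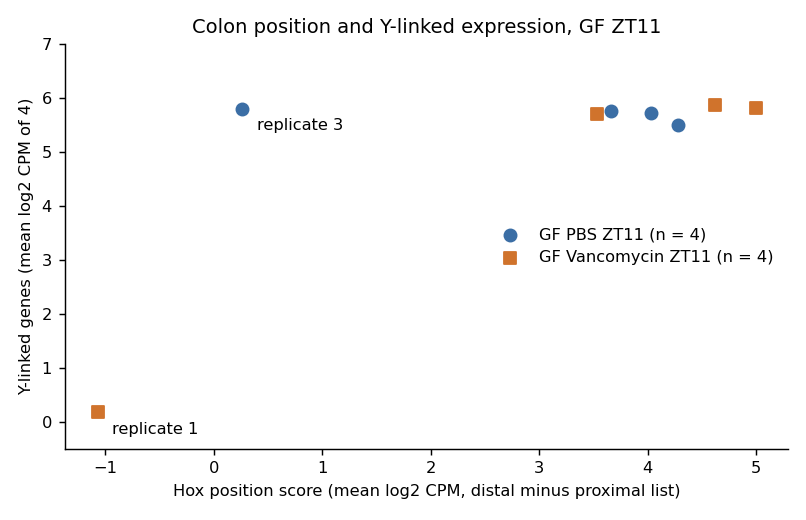
Each point is 1 library of GF colon at ZT11 (4 PBS, circles; 4 vancomycin, squares), with the Hox position score (mean log2 CPM of the distal minus the proximal list) on the x axis and the mean log2 CPM of 4 Y-linked genes on the y axis. Vancomycin replicate 1 sits at -1.07 and 0.18, PBS replicate 3 at 0.27 and 5.80, and the other 6 libraries between 3.53 and 4.99 on the x axis.

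Across all genes, no change passed the test. Of 16951 genes tested with edgeR's quasi-likelihood test, 0 were called at an adjusted p under 0.05 (0% called), 832 had an unadjusted p under 0.05 (4.91%, of them 487, or 2.87%, higher and 345, or 2.04%, lower after vancomycin), and DESeq2 called 8, of which 5 were higher. The 4 vancomycin and 4 PBS libraries did not overlap for 550 genes (3.24%), 330 higher (1.95%) and 220 lower (1.30%). The median log2 fold change over all genes was -0.0031, with quartiles at -0.20 and 0.17 and 49.5% of genes above 0. The effect at ZT11 minus the mean effect at the other 3 times gave 0 calls in edgeR, 813 genes (4.80%) at an unadjusted p under 0.05, and 5 calls in DESeq2. Makeup at those times was uneven too. Y-linked genes had a mean log2 CPM of 0.72, 0.72, 1.38 and 5.17 with vancomycin at ZT5, and 5.34 to 5.81 with PBS. At ZT17 the vancomycin values were 0.85, 1.41, 5.91 and 5.70 and the PBS values 6.02, 6.18, 5.96 and 0.75. At ZT23 the same order gave 0.83, 1.31, 0.14 and 6.04, and 5.80, 5.88, 5.90 and 1.55. Hox position scores also varied, from -2.04 to 3.95 with vancomycin at ZT23. The part of makeup in these effects was not tested. Against the SPF effect at ZT11, 1 gene of 16604 was called (0.00602%), and 1337 (8.05%) had an unadjusted p under 0.05. That gene was Dbp. For this difference DESeq2 called 32, and edgeR called from 0 to 25 genes when single libraries were left out, with 25 without GF vancomycin replicate 1 and 0 without GF vancomycin replicate 2. Fold changes below are log2 values, vancomycin minus PBS, with standard errors, and "higher" and "lower" describe values that did not pass the adjusted test unless a call is stated.

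Dbp (ENSMUSG00000059824), a leucine zipper factor that passes clock time on to metabolic genes, was the 1 gene whose response to vancomycin differed between GF and SPF colon at an adjusted p under 0.05 in edgeR with all libraries. In GF colon at ZT11 it was at 10.6, 7.41, 21.2 and 17.2 CPM in PBS and at 45.3, 41.3, 33.0 and 32.9 CPM in vancomycin libraries. Every vancomycin library lay above every PBS library, and the group means were 14.1 ± 6.24 and 38.1 ± 6.21 CPM (SD, n = 4 each). The log2 fold change was 1.43 ± 0.42 (adjusted p = 0.974). In SPF colon at ZT11, Dbp was at 43.9, 87.0, 93.6 and 23.6 CPM with PBS and 8.67, 22.8, 31.2 and 10.1 CPM with vancomycin, a log2 fold change of -1.77 ± 0.39 (adjusted p = 0.103). The SPF groups ran the opposite way and overlapped in part, in a comparison where 9.86% of genes had an unadjusted p under 0.05. The difference between both effects was 3.19 ± 0.59 (edgeR, adjusted p = 0.0287). It held its sign under all 22 alternatives, from 2.93 to 3.59, and its call under 14. The call was lost without GF PBS replicate 1 (adjusted p = 0.118), 2 (0.142) or 4 (0.0534), GF vancomycin replicate 2 (0.0731), SPF PBS replicate 2 (0.139) or 3 (0.128), or SPF vancomycin replicate 1 (0.0662) or 4 (0.191).

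Other clock genes are read against the same background. Of 20 clock genes tested, 0 were called in the GF comparison, and 3 had an unadjusted p under 0.05, all higher: Dbp, Nr1d2 and Per3. Over all genes, 2.87% were higher at that level. Nr1d2 (ENSMUSG00000021775) was at 31.1, 36.2, 50.4 and 27.6 CPM in PBS and 45.6, 82.5, 71.0 and 66.8 CPM in vancomycin libraries. Its groups overlapped through PBS replicate 3 and vancomycin replicate 1 alone, the 2 libraries whose Hox genes stood apart. The log2 fold change was 0.87 ± 0.30 (adjusted p = 0.974), and 1.21 without those 2 libraries (adjusted p = 0.441). Nr1d1, which acts with Nr1d2 as a repressor, was at 71.5, 91.5, 84.0 and 82.6 CPM in PBS and 98.3, 163, 123 and 105 CPM in vancomycin libraries. These groups did not overlap, though the fold change of 0.57 ± 0.39 was small beside the spread of this gene over the GF table (adjusted p = 0.996). Per3, a period gene of modest role in the core loop, had 13.6, 16.4, 14.2 and 21.3 CPM in PBS and 14.7, 29.2, 29.2 and 21.1 CPM in vancomycin libraries (0.52 ± 0.25, adjusted p = 0.996). Here vancomycin replicates 2 and 3 were high and the other 2 lay within the PBS range.

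Arntl and Nfil3, which the REV-ERB proteins repress, had lower values. Arntl (ENSMUSG00000055116) was at 61.2, 67.0, 57.7 and 58.4 CPM in PBS and at 43.2, 48.1, 46.7 and 48.4 CPM in vancomycin libraries. Both groups were tight and did not overlap, with means of 61.1 ± 4.25 and 46.6 ± 2.38 CPM (SD, n = 4 each), while the fit, whose spread comes from all 32 GF libraries, gave -0.39 ± 0.29 (adjusted p = 0.996). Nfil3, the repressor at D-boxes, was at 8.53, 8.39, 8.60 and 5.70 CPM in PBS and 9.17, 3.76, 4.96 and 5.01 CPM in vancomycin libraries. Vancomycin replicate 1 alone was as high as the PBS libraries, and the fold change of -0.45 ± 0.28 became -0.72 without the 2 libraries that stood apart. Per2, a core repressor, was at 52.5, 74.1, 64.8 and 50.4 CPM in PBS and 48.4, 36.6, 10.2 and 54.1 CPM in vancomycin libraries (-0.69 ± 0.37). Vancomycin replicate 3 was by far the lowest, and replicate 4 alone lay within the PBS range. The DBP relatives Tef and Hlf had fold changes of 0.41 ± 0.34 and 1.30 ± 1.14, with overlapping groups, and 0.92 and 2.14 without the 2 libraries that stood apart. Over all alternatives Tef ran from 0.18 to 0.92 and Hlf from 0.31 to 3.13. Clock, Cry1, Cry2, Bhlhe40, Bhlhe41, Rora and Ciart had positive values up to 0.45, and Per1, Npas2 and Rorb negative ones down to -0.19, all with overlapping groups. Without the 2 libraries that stood apart, Ciart was at 0.22 in place of 0.45. Of these, Per1, Bhlhe41, Rorb, Cry1 and Npas2 changed sign in at least 1 alternative.

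**Figure D2:**
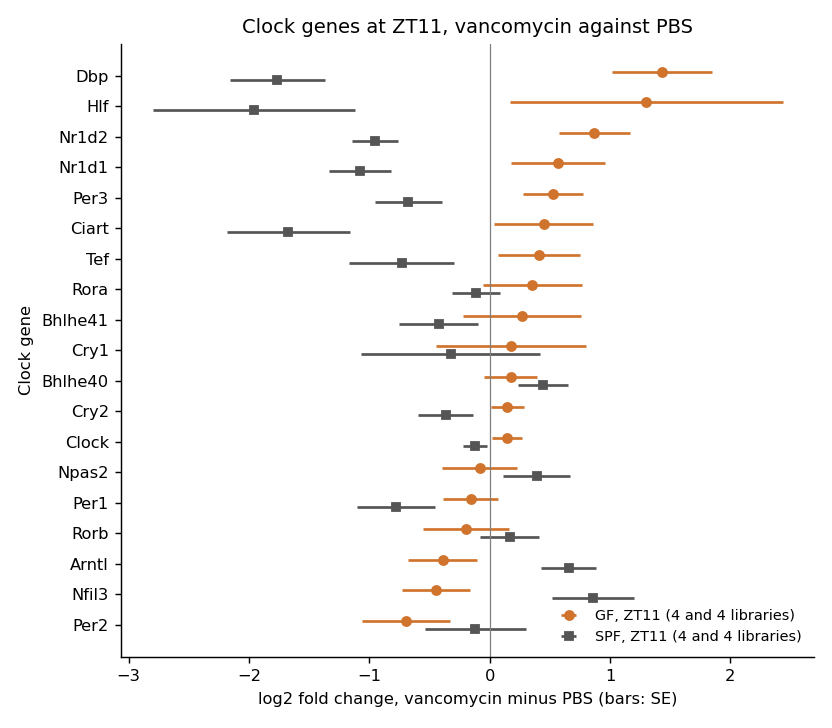
Log2 fold change, vancomycin minus PBS, of clock genes at ZT11 on the x axis (points, with bars for the standard error) in GF colon (circles) and SPF colon (squares), 4 libraries per group. Dbp lies at 1.43 in GF and -1.77 in SPF colon and Arntl at -0.39 and 0.65.

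In SPF colon at ZT11, Nr1d2, Nr1d1, Per3, Ciart, Tef and Hlf had negative and Arntl and Nfil3 positive fold changes, each opposite in sign to the GF value. As a description, 17 of the 20 clock genes had opposite signs in GF and SPF colon, and 3 the same sign: Per2 (-0.69 in GF, -0.12 in SPF), Per1 (-0.16, -0.78) and Bhlhe40 (0.17, 0.44). The share of all genes with opposite signs was not computed. Among the 17 are Cry1, Npas2, Rorb and Bhlhe41, whose GF values were small and changed sign in at least 1 alternative. With all libraries, none of the differences for clock genes other than Dbp was called in edgeR. Nr1d2 came nearest, at 1.82 ± 0.36 (adjusted p = 0.0563), and was called at 2.16 without the 2 GF libraries that stood apart (adjusted p = 0.0053). Over 22 alternatives it was called in 8, DESeq2 and the position covariate among them, and not in 14. For Nr1d1 the difference was 1.64 ± 0.48 (adjusted p = 0.308), for Arntl -1.05 ± 0.37 (adjusted p = 0.417) and for Nfil3 -1.31 ± 0.45 (adjusted p = 0.384). Genes of 1 loop are regulated together, so these values are not independent of that of Dbp.

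The course over the day gives the scale of these values. With PBS, mean Dbp in GF colon was 5.54 ± 1.82 CPM at ZT5, 14.1 ± 6.24 at ZT11, 149.9 ± 46.0 at ZT17 and 18.8 ± 4.98 at ZT23 (SD, n = 4 each). With vancomycin it was 10.1 ± 7.40, 38.1 ± 6.21, 168 ± 87.4 and 13.3 ± 4.58 CPM. The ZT11 vancomycin libraries thus lay above all PBS libraries of ZT5, ZT11 and ZT23 and below all of those of ZT17, which ranged from 112.5 to 212 CPM. Arntl ran the other way, from 71.4 ± 7.70 CPM at ZT5 through 61.1 ± 4.25 at ZT11 to 15.4 ± 1.99 at ZT17 and 39.2 ± 7.30 at ZT23 with PBS. Its ZT11 vancomycin libraries, at 43.2 to 48.4 CPM, again lay between the PBS libraries of ZT11 and those of ZT17, the latter at 13.2 to 17.7 CPM, and within or near those of ZT23, at 30.3 to 47.8 CPM. For Nr1d2 the PBS means were 25.6 ± 14.5, 36.3 ± 10.02, 121 ± 9.73 and 66.9 ± 12.3 CPM in the same order, and the ZT11 vancomycin mean was 66.5 ± 15.4 CPM. The Dbp fold change at the other times was 0.87 ± 0.43 at ZT5, 0.17 ± 0.40 at ZT17 and -0.49 ± 0.41 at ZT23. The ZT11 value exceeded their mean by 1.25 ± 0.48 (adjusted p = 0.995). Nr1d2, Nfil3, Nr1d1 and Arntl did not keep their ZT11 direction at every other time. Nr1d2, higher by value at ZT11, had -0.21 ± 0.30 at ZT5, -0.12 ± 0.29 at ZT17 and -0.14 ± 0.30 at ZT23. Nfil3, lower by value at ZT11, had 0.16 ± 0.27 at ZT5, 0.98 ± 0.29 at ZT17 and 1.15 ± 0.28 at ZT23. Nr1d1 had 1.385 ± 0.41, -0.095 ± 0.39 and 0.07 ± 0.40 in the same order, and Arntl -0.10 ± 0.29, 0.35 ± 0.29 and -0.24 ± 0.29. None of these passed the adjusted test.

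**Figure D3:**
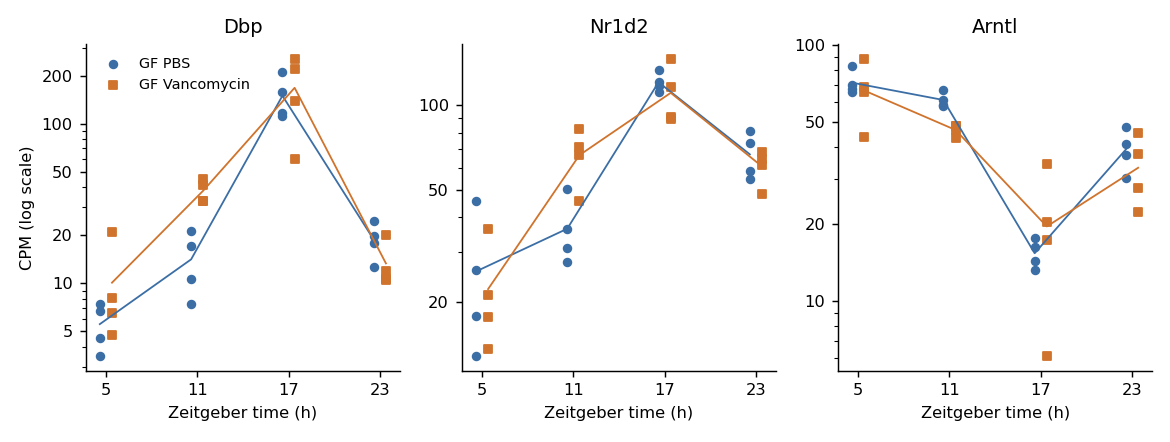
CPM of Dbp, Nr1d2 and Arntl on a log scale (y axis) in each GF library by zeitgeber time in hours (x axis), with PBS as circles and vancomycin as squares, and lines through the means of 4 libraries. At ZT11 the vancomycin points of Dbp, 32.9 to 45.3 CPM, lie above the PBS points, 7.41 to 21.2 CPM, and those of Arntl lie below.

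The promoters of 6 of these genes were read to show where clock motifs fall near their starts (RefSeq, build GRCm38.p6, from 250 bases before to 50 after the start, both strands, Arntl with 2 listed starts). Motifs searched were the E-box CACGTG, the D-box TTANGTAA and the ROR half-site AGGTCA, which were present in 7.15%, 2.32% and 16.3% of 32851 promoters. Per3 held 2 D-boxes, at -205 and -158 from its start, Nr1d2 and Nfil3 held 1 ROR half-site each, at -77 and -12, and the second start of Arntl held 1 at 31. No E-box fell in these windows, and Dbp and Nr1d1 held none of the 3 motifs there. No matches overlapped. The stretch of Per3 (chr4:151044666-151044915, minus strand) is shown for its pair of D-boxes, in capitals, that of Dbp (chr7:45704997-45705246, plus strand) because it is the called gene, and a short stretch of Arntl (chr7:113207530-113207559, plus strand) for its ROR half-site, in capitals. A match is a run of letters and not a measured binding site.
Per3: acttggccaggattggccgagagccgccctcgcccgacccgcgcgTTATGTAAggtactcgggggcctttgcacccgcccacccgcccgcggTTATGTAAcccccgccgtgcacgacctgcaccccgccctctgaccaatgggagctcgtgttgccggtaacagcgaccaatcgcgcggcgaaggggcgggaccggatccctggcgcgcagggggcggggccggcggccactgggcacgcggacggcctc
Dbp: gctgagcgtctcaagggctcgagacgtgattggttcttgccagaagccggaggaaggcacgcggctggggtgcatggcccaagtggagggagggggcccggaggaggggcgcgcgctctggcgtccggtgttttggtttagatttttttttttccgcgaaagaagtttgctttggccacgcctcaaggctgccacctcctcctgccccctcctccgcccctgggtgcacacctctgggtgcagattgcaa
Arntl: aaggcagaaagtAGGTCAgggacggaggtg

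Outside the clock, genes with the smallest p in each direction, at a mean of at least 2 CPM in a group, are given as values. Faf1 (ENSMUSG00000010517), a ubiquitin-binding adaptor of the segregase p97, was at 38.1, 44.7, 33.3 and 35.5 CPM in PBS and 106, 94.2, 45.2 and 46.7 CPM in vancomycin libraries (0.94 ± 0.19, adjusted p = 0.326). Vancomycin replicates 1 and 2 were far above the rest and replicates 3 and 4 just above the PBS range, and the value became 0.65 without the 2 libraries that stood apart. Ufd1, a cofactor of the same segregase, was at 23.6, 28.96, 34.5 and 36.5 CPM in PBS and 43.2, 70.4, 58.3 and 33.8 CPM in vancomycin libraries (0.74 ± 0.18). Only vancomycin replicate 4 fell within the PBS range. Ppfibp2, a liprin, had 16.3 to 20.1 CPM in PBS and 22.8 to 30.3 CPM in vancomycin libraries (0.61 ± 0.14, adjusted p = 0.594). Pdcl, a chaperone cofactor, and Ginm1, a membrane glycoprotein, were also without overlap, at 0.56 ± 0.14 and 0.40 ± 0.10. Etfrf1, a regulator of the electron transfer flavoprotein, Ankrd35 and Vamp4, a vesicle fusion protein, had 0.44 ± 0.11, 1.31 ± 0.33 and 0.74 ± 0.19, with overlap. The remaining pair on the higher side, Ncoa4 and Mt1, handle metals and are described below.

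On the lower side, Ankrd54 was at 25.7, 25.3, 27.4 and 32.8 CPM in PBS and 21.99, 15.5, 16.4 and 16.5 CPM in vancomycin libraries (-0.66 ± 0.14, adjusted p = 0.408). The groups did not overlap, and vancomycin replicate 1 lay nearest to the PBS libraries. Ntrk3, the neurotrophin 3 receptor, was at 2.12, 66.4, 27.5 and 35.6 CPM in PBS and 4.05, 4.37, 4.32 and 2.75 CPM in vancomycin libraries (-3.08 ± 0.80). Here 3 PBS libraries were high and PBS replicate 1 was below all vancomycin libraries. Nr1h5, a nuclear receptor related to the bile acid receptor, was at 9.85, 13.8, 4.23 and 12.2 CPM in PBS and 0, 1.23, 2.20 and 0.99 CPM in vancomycin libraries (-3.17 ± 0.94). Cd177, a surface protein of neutrophils, was at 149, 150.0, 65.2 and 93.7 CPM in PBS and 46.3, 54.0, 43.8 and 62.6 CPM in vancomycin libraries (-1.15 ± 0.36). Both sets were without overlap. Cplane2 (-2.29 ± 0.60), Ptpn23 (-0.46 ± 0.14), an endosomal phosphatase, and Prdm2 (-0.33 ± 0.10) did not overlap either, and Fhl3 (-1.13 ± 0.34) did. Neutrophil, eosinophil and mast cell markers summed to 125.5 to 166 CPM in PBS and 141 to 201 CPM in vancomycin libraries. Cd177 is not on that list, and which cells held its RNA was not tested.

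**Figure D4:**
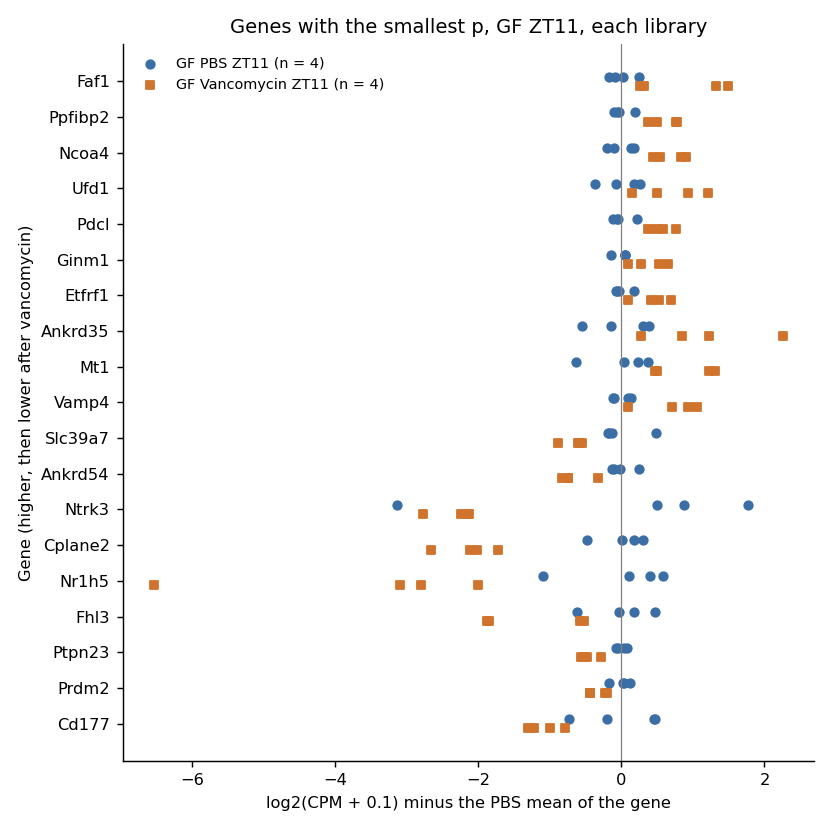
Each point is 1 library of GF colon at ZT11, PBS as circles and vancomycin as squares, for genes with the smallest p in each direction (y axis). The x axis is log2(CPM + 0.1) minus the mean of the 4 PBS libraries, so that for Faf1 vancomycin replicates 1 and 2 (106 and 94.2 CPM) stand well to the right of replicates 3 and 4.

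Of these genes, Slc39a7, Ncoa4 and Mt1 handle iron or zinc, and lists for both metals were then drawn up with that in view, so their counts are a description only. Slc39a7 (ENSMUSG00000024327), the zinc exporter of the endoplasmic reticulum and Golgi, was at 165, 261, 163 and 170 CPM in PBS and 124, 101, 127 and 122 CPM in vancomycin libraries. All vancomycin libraries lay below all PBS libraries, with PBS replicate 2 highest and vancomycin replicate 2 lowest (-0.68 ± 0.14, adjusted p = 0.326). Its effect at ZT5, ZT17 and ZT23 was 0.12 ± 0.14, 0.02 ± 0.14 and 0.02 ± 0.14. Its difference from the SPF effect was -0.86 ± 0.19 (adjusted p = 0.0843), and it was called at -0.95 without the 2 GF libraries that stood apart (adjusted p = 0.0361). Over 22 alternatives it was called in 5 and not in 17, and it was -0.66 without GF PBS replicate 2 (adjusted p = 0.1996), the library highest for this gene. Slc39a4, the zinc importer of the enterocyte surface, had 180, 252, 158 and 140 CPM in PBS and 120.2, 132, 104 and 133 CPM in vancomycin libraries (-0.58 ± 0.24, adjusted p = 0.993). Slc39a11 was lower by value too (-0.80 ± 0.28, adjusted p = 0.974). Of the metallothioneins, small proteins that bind zinc and copper, Mt1 and Mt2 had higher values, while Mt3, at means of 6.37 CPM in PBS and 4.96 CPM in vancomycin libraries, had -0.36 ± 0.65. Mt1 (ENSMUSG00000031765) was at 203, 127, 233 and 255 CPM in PBS and 274, 491, 464 and 279 CPM in vancomycin libraries (0.88 ± 0.23, adjusted p = 0.799). Mt2 was at 75.9, 46.5, 96.0 and 96.1 CPM in PBS and 92.7, 241, 214 and 126 CPM in vancomycin libraries (1.099 ± 0.36, adjusted p = 0.974). For both, vancomycin replicates 2 and 3 were highest. Neither was higher at ZT11 alone. At ZT5, ZT17 and ZT23, Mt1 had 0.48 ± 0.23, -0.32 ± 0.23 and 0.57 ± 0.23. Mt2 had 0.73 ± 0.36, -0.58 ± 0.35 and 1.28 ± 0.36 in the same order. Of 21 zinc genes tested, 2 were higher and 3 lower at an unadjusted p under 0.05 (2.87% and 2.04% of all genes), with a median of 0.00053.

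Iron genes also had values in both directions. Tfrc (ENSMUSG00000022797), the transferrin receptor through which cells take up iron, was at 593, 701, 419 and 547 CPM in PBS and 235, 174, 137 and 357 CPM in vancomycin libraries. No vancomycin library reached the lowest PBS library, and the means were 565 ± 117 and 226 ± 96.3 CPM (SD, n = 4 each; -1.32 ± 0.48, adjusted p = 0.974). Tfrc also varied widely at the other times, from 115 to 663 CPM in single libraries. Ncoa4, the receptor that delivers ferritin for breakdown, was at 116, 113, 95.7 and 89.5 CPM in PBS and 149.8, 183, 193 and 140.2 CPM in vancomycin libraries (0.69 ± 0.17, adjusted p = 0.756), again without overlap. The ferritin chains Fth1 and Ftl1 had -0.24 ± 0.17 and -0.36 ± 0.19, with overlap. Slc40a1, the iron exporter, and Slc11a2, an importer, had 0.57 ± 0.52 and 0.24 ± 0.28. Of 28 iron genes tested, 1 was higher and 1 lower at an unadjusted p under 0.05 (2.87% and 2.04% of all genes), with a median of 0.04.

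**Figure D5:**
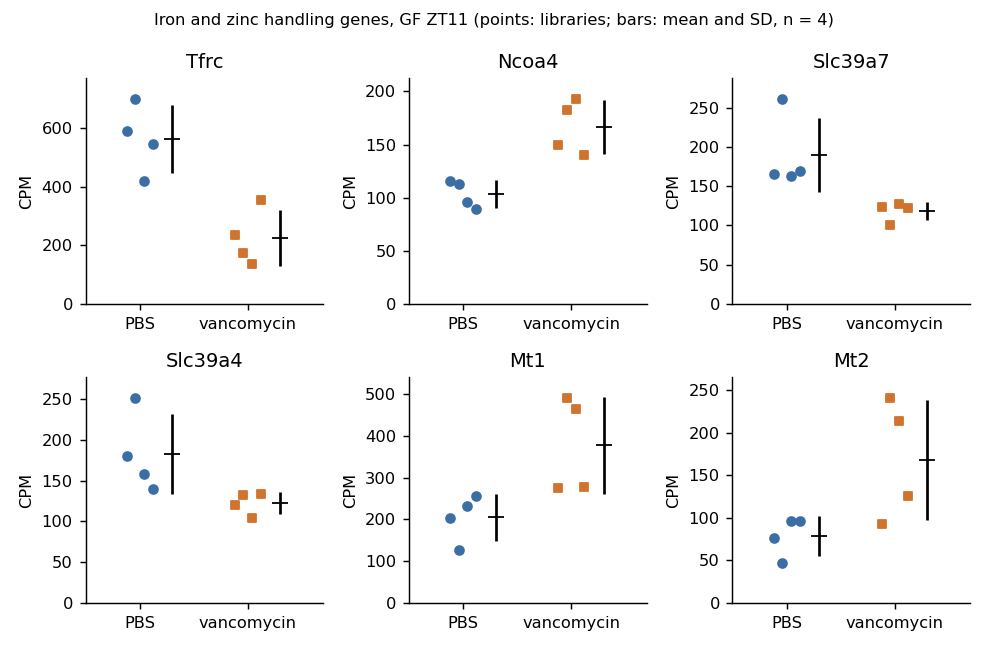
CPM (y axis, from 0) of 6 iron and zinc genes in each GF ZT11 library, by treatment (x axis), with the mean and SD of 4 libraries as a bar to the right of the points. Tfrc runs from 419 to 701 CPM with PBS and from 137 to 357 CPM with vancomycin, and Mt1 from 127 to 255 and from 274 to 491 CPM.

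Transcripts of red blood cells, from a list drawn up together with the metal lists, were higher by value. Hbb-bs, an adult beta globin, was at 10.1, 16.2, 17.8 and 11.03 CPM in PBS and 34.7, 64.8, 77.3 and 15.3 CPM in vancomycin libraries (1.80 ± 0.53, adjusted p = 0.974). Vancomycin replicate 4 alone lay within the PBS range. At ZT5, ZT17 and ZT23 the Hbb-bs fold change was 1.08 ± 0.52, -0.93 ± 0.53 and 0.58 ± 0.52. Of 9 red cell genes tested, 5 were higher at an unadjusted p under 0.05, 4 of them globins that share sequence. Over all genes, 2.87% were higher at that level. The list summed to 34.1 to 59.4 CPM in PBS and 45.3 to 209.9 CPM in vancomycin libraries. Globin RNA is low in both groups. The part of blood in the metal gene values was not tested.

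In the epithelium, 2 amino acid transporters had higher values without overlap. Slc6a14, a broad amino acid importer, was at 319, 374, 449 and 295 CPM in PBS and 593, 703, 650 and 490.3 CPM in vancomycin libraries (0.76 ± 0.32, adjusted p = 0.993). Slc7a9, a cystine transporter, was at 10.9, 13.01, 14.5 and 13.7 CPM in PBS and 17.4, 38.6, 43.2 and 23.1 CPM in vancomycin libraries (1.23 ± 0.47, adjusted p = 0.977). They were the 2 of 40 colonocyte and transport genes with an unadjusted p under 0.05, and the 2 without overlap. Over all genes the shares were 4.91% and 3.24%, so the list did not stand out. Of 33 antimicrobial genes, Sprr2a1 and Saa2 alone were higher at that level. Sprr2a1, a small proline-rich protein with antibacterial activity, was at 41.5, 40.5, 46.7 and 55.6 CPM in PBS and 54.4, 139, 178 and 105 CPM in vancomycin libraries (1.37 ± 0.39, adjusted p = 0.974). Saa2, an acute phase protein, had 0.86 ± 0.38 (adjusted p = 0.996). For both, vancomycin replicate 1 lay within the PBS range and the other 3 above it. Muc4, a membrane mucin, was at 85.3, 85.4, 83.1 and 92.2 CPM in PBS and 73.9, 21.03, 12.6 and 69.2 CPM in vancomycin libraries (-0.97 ± 0.47, adjusted p = 0.996), the only goblet list gene of 28 at that level.

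Mitochondrial genes gave small values. Of 29 genes of fatty acid oxidation and ketogenesis, 18 had positive values, with a median of 0.05, and 4 were higher and 0 lower at an unadjusted p under 0.05. Over all genes, 2.87% were higher and 2.04% lower at that level. Without the 2 libraries that stood apart, 16 of the 29 were positive, 4 higher and 1 lower, beside 618 higher and 645 lower of 16904 genes tested. Hadhb, a subunit of the trifunctional protein, was at 154, 157, 148 and 154 CPM in PBS and 180.0, 219, 195 and 205 CPM in vancomycin libraries (0.38 ± 0.10, adjusted p = 0.942). The PBS libraries were nearly equal and all vancomycin libraries lay above them. Eci2, an enoyl-CoA isomerase (0.37 ± 0.13), and Acadm, the medium-chain dehydrogenase (0.43 ± 0.18), did not overlap either, and Slc25a20, the carnitine carrier (0.44 ± 0.19, and 0.68 without the 2 libraries that stood apart), did. All 13 genes encoded by the mitochondrial genome had positive values (median 0.30), also under both other scalings and without the 2 libraries that stood apart. Among the 13, 4 were higher without overlap, against 1.95% of all genes. Of these, mt-Nd2, a subunit of complex I and the 1 with an unadjusted p under 0.05, was at 1018, 1237, 1383 and 1024 CPM in PBS and 1774, 1416, 1500 and 1657 CPM in vancomycin libraries (0.45 ± 0.22, adjusted p = 0.996). These 13 are cut from shared transcripts and are not independent.

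Heat shock genes were lower by value in 14 of 16, with a median of -0.30 and 4 at an unadjusted p under 0.05. Over all genes, 2.04% were lower at that level. Hsp90ab1, a cytosolic chaperone, was at 1531, 1066, 1077 and 1114 CPM in PBS and 1222, 717, 784 and 502 CPM in vancomycin libraries (-0.57 ± 0.24, adjusted p = 0.993). Vancomycin replicate 1 was the highest of its group and overlapped the PBS libraries. Hspb1 (-0.72 ± 0.32), Bag3 (-0.38 ± 0.17) and Hsf1 (-0.32 ± 0.13), the heat shock transcription factor, were the other 3. Without the 2 libraries that stood apart, 0 of the 16 were positive, 6 were lower at that level and the median was -0.44. In that setting 645 of all 16904 genes tested were lower at the same level. Of 31 proliferation genes, 28 were negative (median -0.26) and 1, the replication helicase subunit Mcm2, had an unadjusted p under 0.05. Mcm2 was at 37.1, 28.5, 9.55 and 34.8 CPM in PBS and 13.2, 7.06, 9.71 and 11.6 CPM in vancomycin libraries (-1.40 ± 0.49, adjusted p = 0.974). PBS replicate 3 alone was as low as the vancomycin libraries, and without the 2 libraries that stood apart the list had 9 genes lower at that level (median -0.61), against 645 lower of 16904 genes tested.

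Markers of lymphoid tissue varied widely between libraries. B cell and lymphoid follicle markers summed to 915, 468, 50.01 and 478 CPM in PBS and 29.9, 118, 299 and 233 CPM in vancomycin libraries. The lowest of each group were again the 2 libraries whose Hox genes stood apart. All 21 markers had negative values (median -1.60), none at an unadjusted p under 0.05, where 2.04% of all genes were lower. In whole tissue, fewer cells of a type and less RNA per cell cannot be told apart. T and NK cell markers had 23 of 27 negative values (median -0.68), and their sums ran from 47.3 to 168 CPM in PBS and from 43.6 to 78.8 CPM in vancomycin libraries. Cd3d, a chain of the T cell receptor complex, was at 8.27, 5.88, 0.14 and 9.61 CPM in PBS and 0.20, 1.00, 1.42 and 0.70 CPM in vancomycin libraries (-2.84 ± 1.32, adjusted p = 0.996). PBS replicate 3 was the lowest of all. MHC class II genes had 9 of 10 negative values (median -0.95), with sums of 119 to 1074 CPM in PBS and 139 to 440 CPM in vancomycin libraries. Tgfb1, an anti-inflammatory cytokine, was at 36.6, 15.8, 15.4 and 19.3 CPM in PBS and 10.1, 4.30, 8.29 and 9.23 CPM in vancomycin libraries (-1.45 ± 0.60, adjusted p = 0.993), with no overlap.

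Interferon-stimulated genes were split in sign. Of 49 tested, 20 had positive values (median -0.03), 0 were higher and 1 lower at an unadjusted p under 0.05, namely the chemokine Cxcl9 (-2.09 ± 0.96). The shares over all genes were 2.87% higher and 2.04% lower, so the list did not stand out. Without the 2 libraries that stood apart, 38 of the 49 were positive (median 0.24) and 1 was higher at that level, beside 618 of all 16904 genes tested. Of 14 genes of MHC class I and the immunoproteasome, 10 were positive, and H2-T23, a nonclassical class I gene, was at 52.0, 40.9, 44.6 and 51.5 CPM in PBS and 135, 70.7, 72.4 and 40.3 CPM in vancomycin libraries (0.75 ± 0.26, adjusted p = 0.974). Vancomycin replicate 1 was highest, and the value was 0.34 without the 2 libraries that stood apart.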

How the data were processed

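Per the labels' protocols, 1000 ng of total RNA was poly(A) selected, made into NEBNext Ultra II libraries and read on a NextSeq 550 for 75 cycles from a single end. Salmon, Trim Galore 0.6.2, cutadapt 3.5 and the build GRCm39 are listed in the submitters' processing notes. The authors deposited estimated counts per gene in 1 GF and 1 SPF table of 35534 genes. The file names call them normalized, by a method not given in the sources used here, and no depth scaling was visible, so they were rounded and scaled by TMM. No source used here gives the annotation or the use of strand, so close copies and overlapping genes have uncertain values. Column names matched the labels, with 0 columns of other samples. No 2 libraries were identical.

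Genes reaching a count of 10 in 4 or more libraries entered edgeR 4.0.16 (quasi-likelihood, two-sided, R 4.3.3) in 1 fit of all 32 GF libraries with 8 group means, and for the SPF difference in 1 fit of 64 libraries. Benjamini-Hochberg adjustment ran over all genes tested, at a threshold of 0.05. CPM are TMM-scaled. SE is the fold change over the root of F, unreliable near 0. The scripts were tested on simulated data. Genes named are the 10 smallest p per direction among genes with a mean of at least 2 CPM in 1 group and no predicted model or antigen receptor segment, all clock, Hox and Y-linked genes, and any called list member. A few of these are not reported here. Tfrc, Mt2, Hbb-bs, Nlrp1b and the other genes named outside this rule were chosen after their values were seen. The comparison and gene lists were chosen with earlier results of these data known. Alternatives were other scalings (RLE, library total), no filter, DESeq2 1.42.0, a replicate block, covariates and single libraries left out.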

Additional observations from a re-analysis of the deposited data

Results flagged for a closer look

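Of 116 sets of 4 values examined for a library far from the other 3, 12 stood out, where chance gives about 1 in 20. In PBS, replicate 2 was lowest for Ginm1 (62.3 CPM, others 71.0 to 71.1) and highest for Etfrf1 (22.8 CPM, others up to 19.7) and Slc39a7 (261 CPM, others up to 170 CPM). Replicate 4 was lowest for Nfil3 (5.70 CPM). Replicate 3 was lowest for Cd3d (0.14 CPM, others 5.88 to 9.61) and for the Hox position score (0.27, others 3.66 to 4.28).

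In vancomycin, replicate 1 was lowest for the Y-linked genes (mean log2 CPM 0.18, others 5.70 to 5.88) and highest for Rorb (5.33 CPM, others up to 3.53). Replicate 2 was lowest for Slc39a7 (101 CPM) and Cry1 (9.13 CPM, others 53.0 to 73.1). Replicate 4 was lowest for Ntrk3 (2.75 CPM) and Per1 (27.1 CPM). The Dbp effect at ZT11 differed between GF and SPF colon by 3.19 on the log2 scale, by the test of the difference itself.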

How the results depend on the processing

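The count of called genes in the GF ZT11 comparison was 0 in edgeR, and under RLE scaling, library totals, no filter, each covariate and the replicate block. DESeq2 called 8 (Faf1, Ppfibp2, Slc39a7, Ankrd54 and Ntrk3 among them), the fit of only the 8 GF ZT11 libraries called 1 (Nlrp1b), and leaving out single libraries gave 0 to 1 (Faf1, without vancomycin replicate 3 or 4). Genes at an unadjusted p under 0.05 numbered 832, and 454 to 1660 without single libraries (454 without vancomycin replicate 2, 559 without vancomycin replicate 3, 1660 without vancomycin replicate 1). They numbered 1263 without both libraries that stood apart, a setting chosen after seeing the data. Against the other GF times, DESeq2 called 5 and every other setting 0. Against SPF, where the count was 1, DESeq2 called 32, the position covariate 3 and the setting without both libraries 11. Leaving out single libraries gave 0 to 25 calls, with 25 without GF vancomycin replicate 1, 7 without SPF vancomycin replicate 2 and 6 without SPF PBS replicate 4. The cause was not tested.

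Same-numbered PBS and vancomycin libraries had correlations of -0.24, 0.17, -0.48 and 0.14 in their deviations from group means, and none correlated best with its own number, so the numbers were not taken as pairs. With the replicate block, the SPF difference had 2 calls, Dbp and Nr1d2.

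The Hox position score difference of -0.04 ranged from -0.97 to 1.32 without single libraries, with 0.16, 0.37 and 0.28 without PBS replicates 1, 2 and 4 and 1.32 without vancomycin replicate 1. Fold changes of some clock genes turned. Without single libraries they ranged from -0.30 to 0.18 for Per1 (positive without PBS replicate 2), from -0.22 to 0.17 for Npas2 (0.17 without PBS replicate 2, 0.025 without vancomycin replicate 4), from -0.38 to 0.017 for Rorb (positive without PBS replicate 4), from -0.12 to 0.49 for Bhlhe41 (negative without vancomycin replicate 1), and from -0.076 to 0.53 for Cry1 (negative without vancomycin replicate 4). Cry1 was also at -0.028 with the B cell covariate.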

Other observations

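Nlrp1b, a sensor that starts inflammasome assembly, had GF ZT11 groups far apart and was chosen after its values were seen. It was at 0.40, 0.42, 0.14 and 0.60 CPM in PBS and 8.97, 13.6, 12.6 and 8.39 CPM in vancomycin libraries (4.79 ± 1.45, adjusted p = 0.974 in edgeR over all GF libraries and 0.0205 over the 8 ZT11 libraries alone). Across the GF table its values fell into 2 ranges, with 16 of 32 libraries above 2 CPM, none between 0.86 and 6.29 CPM, and 6 of 12 PBS and 6 of 12 vancomycin libraries of the other times in the upper range. Of the 32 SPF libraries, 17 were above 2 CPM, with none between 0.84 and 3.36 CPM.

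Slc37a2, a sugar phosphate exchanger of the endoplasmic reticulum, was at 148, 89.4, 3.96 and 130 CPM in PBS and 2.83, 957, 872 and 276 CPM in vancomycin libraries (2.51 ± 1.69, adjusted p = 0.996), lowest in the 2 libraries with the lowest Hox position scores. Insig1, which restrains cholesterol synthesis, had 0.59 ± 0.26 (adjusted p = 0.996).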
